A study of Mus musculus with 17 samples.

Results

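Granulocytic cells of the spleen were compared between mice that had carried a tumour for 6 weeks and naive mice. The cells were CD11b+ Ly-6C(low) Ly-6G(high), are titled CD11b+L6G+Ly6C- in the labels, and are called PMN (polymorphonuclear) cells here. All arrays with that title at these 2 stages were taken, which gave 6 of the study's 17 arrays. The 6-week group held 2 arrays, of cells from female BALB/c mice given 100000 Her-2/CT26 cells under the skin 6 weeks earlier. CT26 is a mouse colon carcinoma line of the BALB/c strain, so the tumour was a transplanted line rather than one that arose in the gut. The naive group held 4 arrays, of cells from female BALB/c mice with no tumour injection. The study asked what makes suppressor cells more suppressive as a tumour grows. Spleens were pooled, CD11b+ cells were enriched on magnetic beads and sorted, and their total RNA was hybridised to Affymetrix Mouse Gene 1.0 ST arrays. The age of the mice, the size of the pools and whether numbered replicates came from separate pools are not given in the sources used here, so p-values rest on the variation from array to array, part or all of which could be technical. Set beside them were 2 PMN arrays from mice 3 weeks after injection and monocytic cells (Mo, CD11b+ Ly-6C(high) Ly-6G(low)) on 3 arrays each from 6-week and naive mice.

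Myeloid-derived suppressor cells are myeloid cells that build up in hosts with tumours and restrain T cells. The granulocytic kind resembles neutrophils and the monocytic kind resembles monocytes. Neutrophils develop in the bone marrow, and in mice also in the spleen, through stages that each make their own proteins: dividing promyelocytes make the enzymes of azurophil granules, myelocytes those of specific granules, and later stages those of gelatinase granules and the receptors of the mature cell. Granule mRNA fades as the cell matures while the packed proteins stay, so levels of these transcripts follow the stage of a cell.

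The sorted cells carried the genes of their gate. Ly6g, which encodes the Ly-6G antigen used to sort them (feature 10424683), had log2 intensities of 12.97 and 12.94 on the 6-week arrays, against 10.37, 11.14, 10.36 and 10.21 on the naive arrays. The 6-week arrays lay above every naive array, and naive replicate 2 was the highest naive one. The change was 2.43 ± 0.48 (standard error, SE) on the log2 scale, 5.40-fold higher (adjusted p = 0.000443, limma). Itgam, the gene of CD11b, had levels of 11.93 and 11.88 on the 6-week arrays, against 11.11, 11.05, 10.86 and 10.95 on the naive arrays, and rose by 0.91 ± 0.10 (adjusted p = 2.1e-06). Cxcr2, the receptor that draws mature neutrophils to ELR chemokines, lay at 12.44 and 12.56 at 6 weeks, against 12.62, 12.55, 12.55 and 12.47 in naive cells. Its groups overlapped and its change of -0.05 ± 0.27 did not pass (adjusted p = 0.88), and the sign turned after median centring (0.15), after centring on olfactory receptor genes (0.30) and without 6-week replicate 1 (0.01). Ccr2, the chemokine receptor of inflammatory monocytes, lay at 6.27 and 6.78 at 6 weeks, against 6.2, 6.40, 6.2 and 6.17 in naive cells (0.29 ± 0.13, adjusted p = 0.062, passing under 7 alternatives, among them without 6-week replicate 1, at 0.007, and without naive replicate 2, at 0.0379). For scale, 95% of olfactory and vomeronasal receptor genes, which serve sensory neurons, lay under 6.56 at 6 weeks and 7.22 in naive cells.

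Naive and 6-week arrays stood apart. Pearson's r across genes, which are not independent replicates, was 0.9945 between the 6-week arrays, 0.9832 to 0.9911 between naive arrays, and between 0.8974 and 0.9328 for a 6-week with a naive array. Naive replicate 2 was closer to the first 3-week array (0.9940), and naive replicate 3 to the second (0.9922), than to any naive array. On the first principal component of the 8 PMN arrays, which held 85.3% of the variance, the 6-week arrays lay at 68.5 and 65.7 and the naive arrays between -27.9 and -13.0. Median intensity was 82.4 and 81.0 on the 6-week arrays and from 91.3 to 94.8 on the naive arrays, while upper quartiles were 201.8 and 196.9 at 6 weeks and between 182.8 and 183.5 on the naive arrays. The 6-week arrays were thus lower in the median and higher in the upper quartile, which bears on every small fall below. In bulk samples such as these, fewer cells of a type and less RNA per cell cannot be told apart.

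Of 19938 genes, 13047 (65.4%) passed an adjusted p of 0.05, with 5075 (25.5%) higher and 7972 (40%) lower at 6 weeks. Rises were the larger changes: 1848 genes (9.27%) were at least 2-fold higher and 159 (0.797%) at least 2-fold lower, which together made 2007 genes (10.1%). Those counts were 3395 and 25 after centring on the receptor genes, and 1150 and 197 after quantile normalization over the 8 PMN arrays. Both 6-week arrays lay above all naive arrays in 5749 genes (28.8%) and below all of them in 10257 (51.4%). The 1194 olfactory and vomeronasal receptor genes, a gauge of unexpressed features, had a median change of -0.36, with 684 (57.3%) lower, 0 higher and 25 at least 2-fold lower. The median change of all genes was -0.18. The split between rises and falls depended on the scale: 38.9% of calls were rises as deposited, 62.16% after centring each array on its median, 52.87% after quantile normalization over the 8 PMN arrays and 86.77% after centring on the receptor genes, settings that put the median change of all genes at 0.01, -0.07 and 0.17. Centring on a median moves every gene's change by the same amount, so it matters most to small changes. Small falls are therefore read against the receptor genes below, and a list is described by its count and its median beside these backgrounds.

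**Figure D1:**
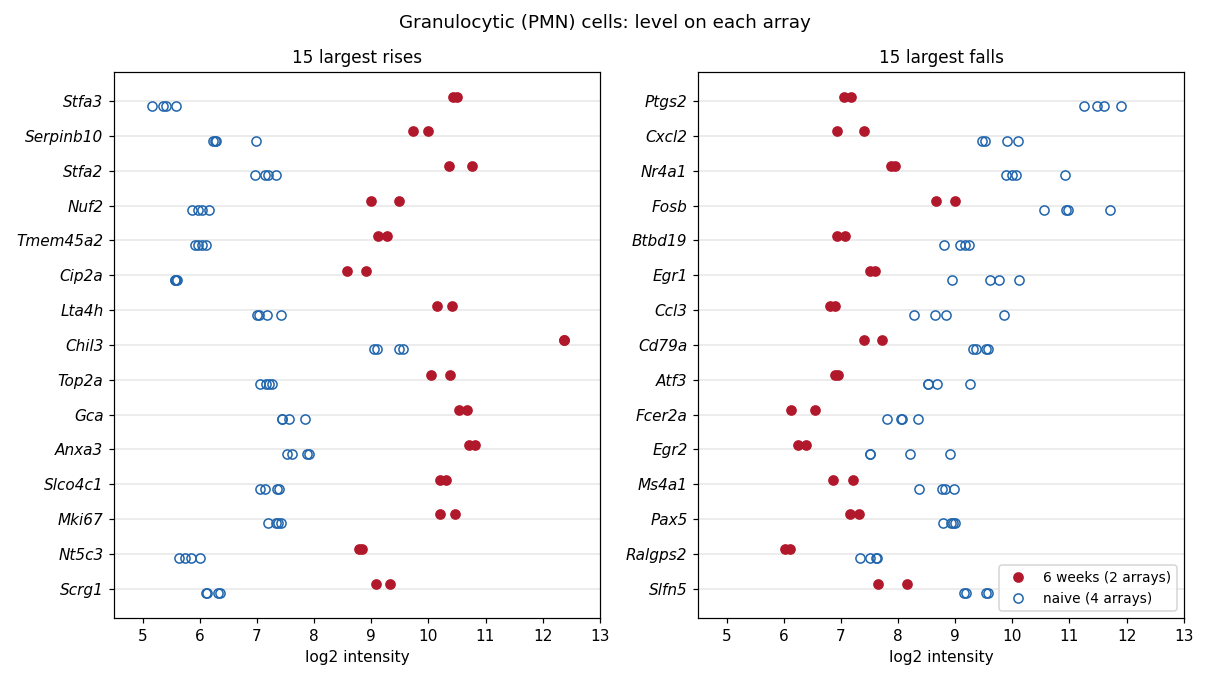
Log2 intensity of the 15 largest rises (left panel) and the 15 largest falls (right panel) on each of the 2 6-week arrays (filled) and the 4 naive arrays (open). Only genes whose stages do not overlap could be picked, so that separation is part of the choice. Stfa3 and Ptgs2 have the widest gaps.

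The largest rise was that of Stfa3, a stefin A gene that encodes an inhibitor of cysteine cathepsins (feature 10439299). Its log2 intensity was 10.43 and 10.50 on the 6-week arrays, against 5.59, 5.40, 5.36 and 5.16 on the naive arrays, so that it lay among unexpressed features in naive cells and far above them at 6 weeks. The change was 5.09 ± 0.54, 34.0-fold higher (adjusted p = 1e-06). Its neighbour in the family, Stfa2, followed with 10.77 and 10.36 on the 6-week arrays, against 7.33, 7.20, 6.96 and 7.13 on the naive arrays (3.41 ± 0.35, 10.6-fold higher). The near-identical copies of this family can share probes, so their values are uncertain as to which copy they measure.

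Serpinb10, a serpin of the cytoplasm and nucleus of myeloid cells, had log2 intensities of 9.99 and 9.74 on the 6-week arrays, against 6.29, 6.99, 6.22 and 6.27 on the naive arrays (3.42 ± 0.24, 10.7-fold higher). Lta4h, the hydrolase that makes leukotriene B4, a neutrophil attractant, had 10.41 and 10.15 on the 6-week arrays, against 7.18, 7.41, 7.0 and 7.04 on the naive arrays (3.12 ± 0.23, 8.72-fold higher). Chil3, which encodes the secreted chitinase-like protein Ym1 of specific granules, had 12.38 and 12.37 on the 6-week arrays, against 9.10, 9.55, 9.04 and 9.49 on the naive arrays (3.08 ± 0.34). Each of these 3 genes was higher on both 6-week arrays than on any naive one, as the choice of leading genes required. Among the other leading rises, Tmem45a2, Slco4c1 (an organic anion transporter) and Scrg1 changed by 3.19, 3.02 and 2.99. Gca (grancalcin, a calcium-binding protein of neutrophil granules), Anxa3 (an annexin of neutrophil granules) and Nt5c3 (a pyrimidine nucleotidase) changed by 3.03, 3.02 and 3.00. Nuf2 (kinetochore), Cip2a (an inhibitor of the phosphatase PP2A), Top2a (topoisomerase II alpha) and Mki67 (Ki-67), all genes of dividing cells, changed by 3.23, 3.16, 3.04 and 3.01. All 15 kept their direction and their call in every fit tried.

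The largest fall was that of Ptgs2, which encodes cyclooxygenase 2, the inducible enzyme of prostaglandin synthesis (feature 10350516). Its log2 intensity was 7.18 and 7.06 on the 6-week arrays, against 11.60, 11.90, 11.26 and 11.47 on the naive arrays. The naive arrays lay close together at a high level and both 6-week arrays far below them. The change was -4.44 ± 0.18, 21.8-fold lower (adjusted p = 6.38e-11). Cxcl2, a chemokine that recruits neutrophils through Cxcr2, had 6.94 and 7.40 on the 6-week arrays, against 9.91, 10.09, 9.47 and 9.53 on the naive arrays (-2.58 ± 0.20, 5.98-fold lower). Ccl3, a chemokine for monocytes and T cells, had 6.81 and 6.89 on the 6-week arrays, against 8.84, 9.85, 8.27 and 8.65 on the naive arrays (-2.05 ± 0.40). Ptgs2 and both chemokines were lower on both 6-week arrays than on any naive one, as the choice of leading genes required.

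Most of the other leading falls belonged to a pair of groups. Nr4a1, Fosb, Egr1, Egr2 and Atf3 are immediate early or stress transcription factors and changed by -2.30, -2.22, -2.05, -1.72 and -1.82. Cd79a (a chain of the B cell receptor), Fcer2a (the IgE receptor CD23), Ms4a1 (CD20), Pax5 (the transcription factor of the B lineage) and Ralgps2 changed by -1.88, -1.73, -1.70, -1.68 and -1.46. Btbd19 and Slfn5 (a Schlafen protein) changed by -2.08 and -1.46. All 15 falls kept their direction and their call in every fit tried.

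**Figure D2:**
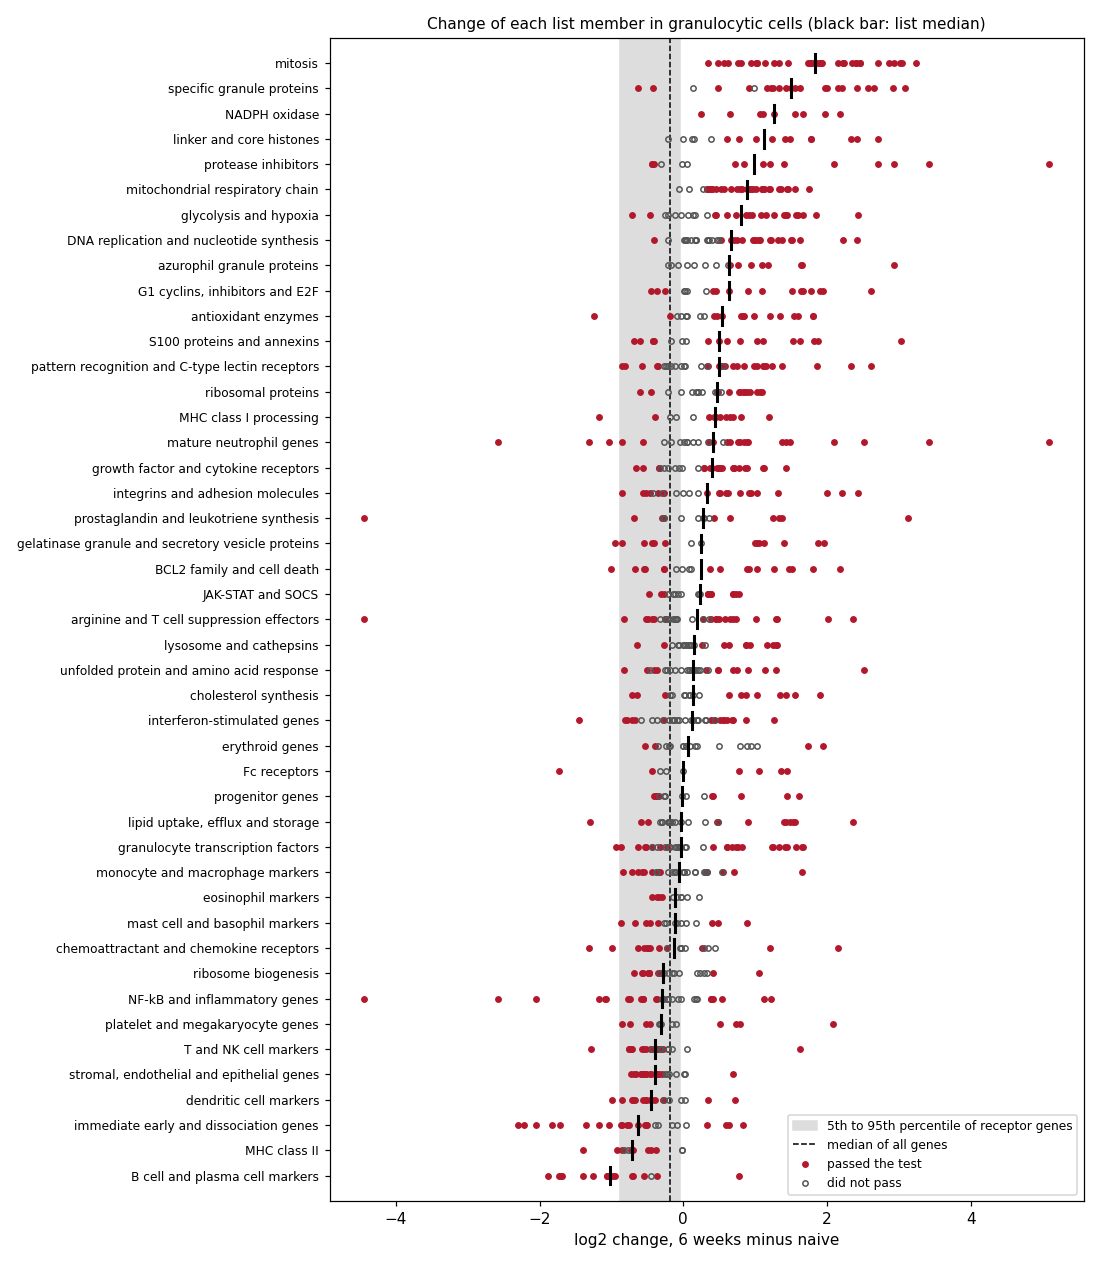
Log2 change (6 weeks minus naive) of every measured member of 45 gene lists, sorted by the list median (black bar). Filled points passed an adjusted p of 0.05. The grey band spans the 5th to the 95th percentile of the receptor genes (-0.88 to -0.04) and the dashed line is the median of all genes (-0.18). Mitosis genes have the highest list median (1.84) and B cell genes the lowest (-1.03).

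Granule genes rose more often than they fell. Of 23 specific granule genes, 19 rose and 2 fell, 17 of them at least 2-fold higher, with a median change of 1.5. Olfm4 (olfactomedin 4, present in a subset of neutrophils) had 11.86 and 12.06 on the 6-week arrays, against 8.86, 9.50, 8.86 and 8.97 on the naive arrays (2.91 ± 0.43, 7.54-fold higher, adjusted p = 3.28e-05). Ceacam10, a carcinoembryonic antigen family member, had 10.15 and 10.56 on the 6-week arrays, against 7.28, 8.26, 8.05 and 7.25 on the naive arrays (2.65 ± 0.26). Both were above every naive array. Ltf, the gene of the iron-binding protein lactoferrin, lay at 13.23 and 13.47 at 6 weeks, against 12.04, 12.10, 11.86 and 12.08 in naive cells, a smaller rise from a high level (1.33 ± 0.41, adjusted p = 0.01, and 0.0781 without 6-week replicate 2). Summed over the list, intensity was 88100 to 91227 on the 6-week arrays and 29783 to 34057 on the naive arrays. The members that fell were Orm2 (an acute phase glycoprotein) and Ptx3 (a pentraxin), by 0.63 and 0.43. Neither fall passed after centring on the receptor genes (adjusted p = 0.062 and 0.675). That of Ptx3 also did not pass after median centring (adjusted p = 0.0904) or quantile normalization over 17 or 8 arrays (0.0506 and 0.133). With intensities below 64 set to 64 the change of Ptx3 was -0.0, so its fall lay under that floor. Without 6-week replicate 1 the change was -0.417.

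Azurophil granule genes, the programme of promyelocytes, were split. Of 16 measured, 8 rose and 0 fell (5 at least 2-fold higher, median 0.64). Serpinb1a, the inhibitor of neutrophil serine proteases, rose by 2.93 ± 0.25 (7.64-fold higher), and Lyz2, the lysozyme gene of myeloid cells, by 1.64 ± 0.12. Mpo, the gene of myeloperoxidase, had 7.84 and 7.32 on the 6-week arrays, against 6.06, 5.75, 5.93 and 6.02 on the naive arrays (1.64 ± 0.28, adjusted p = 0.000144). Its groups did not overlap, and it lay above the level under which 95% of the receptor genes lay at 6 weeks and below it in naive cells. Elane (neutrophil elastase) had 7.01 and 6.98 on the 6-week arrays, against 6.44, 6.24, 6.37 and 6.41 on the naive arrays (0.63 ± 0.28, adjusted p = 0.0578). Ctsg (cathepsin G) had 6.29 and 6.36 on the 6-week arrays, against 5.91, 5.64, 5.91 and 6.03 on the naive arrays (0.45 ± 0.28, adjusted p = 0.155). In both genes the 6-week arrays lay above all naive arrays, and neither passed in the fit over all arrays. When the 8 PMN arrays were fitted alone, both passed (adjusted p = 0.000133 for Elane and 0.00724 for Ctsg). In alternatives that kept all 17 arrays, both passed with array weights (0.0032 for Elane and 0.0256 for Ctsg). Both also passed after quantile normalization over 17 arrays (0.0134 and 0.0329), and Elane narrowly after median centring (0.0493). 

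Genes of gelatinase granules and secretory vesicles went both ways. Of 15, 7 rose and 6 fell, with a median of 0.24. Mmp8 (neutrophil collagenase), Mmp25 (a membrane-type matrix metalloproteinase) and Qsox1 (a sulfhydryl oxidase) rose by 1.95, 1.87 and 1.39. Mmp8 lay at 12.04 and 12.25 at 6 weeks, against 10.37, 10.19, 10.27 and 9.94 in naive cells. Alpl, the alkaline phosphatase of secretory vesicles, fell by 0.54 (adjusted p = 0.000238, and 0.211 after centring on the receptor genes, where 0 of the 15 genes fell).

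Of 31 genes of the mature neutrophil 16 rose and 5 fell (median 0.41). After quantile normalization over 17 arrays 11 rose and 9 fell (median 0.22), and over 8 arrays 11 rose and 7 fell (median 0.20). Beside Stfa3 and Stfa2, Retnlg, a resistin-like secreted protein of neutrophils, rose by 2.51 ± 0.52. It lay at 12.72 and 12.79 at 6 weeks, against 9.77, 10.90, 10.88 and 9.44 in naive cells, with naive replicates 2 and 3 more than 1 log2 unit above naive replicates 1 and 4. Beside Cxcl2, the falls included Ccrl2, an atypical receptor that presents chemerin, and Btg2, an antiproliferative gene, by 1.31 and 1.03. Csf3r, the receptor for the growth factor G-CSF, lay at 11.71 and 11.90 at 6 weeks, against 12.41, 12.33, 12.38 and 12.31 in naive cells. Its change was -0.56 ± 0.12 (adjusted p = 0.000827, and 0.342 after centring on the receptor genes). S100a8 and S100a9 encode calprotectin, the most abundant protein of the neutrophil cytosol. S100a8 had 13.12 and 13.20 on the 6-week arrays, against 12.26, 12.55, 12.49 and 12.20 on the naive arrays (0.79 ± 0.29, adjusted p = 0.0267). S100a9 had 12.96 and 13.04 on the 6-week arrays, against 12.48, 12.26, 12.40 and 12.41 on the naive arrays (0.61 ± 0.26, adjusted p = 0.0494). Both were higher on each 6-week array than on each naive one, but both calls were fragile in the fit over 17 arrays. The SE of that fit pools the spread of PMN and Mo arrays. Both calls held when the 8 PMN arrays, or the 6 naive and 6-week PMN arrays, were fitted alone. Without 6-week replicate 1 or 2 the adjusted p was 0.0914 and 0.123 for S100a8 and 0.129 and 0.185 for S100a9. Without naive replicate 1 or 4 it was 0.0527 and 0.0565 for S100a8, and without any 1 naive array it was 0.0621 to 0.0877 for S100a9. Both calls also ended with intensities below 64 set to 64 and after either quantile normalization, where the change of S100a9 was 0.36 over 17 arrays and 0.41 over 8 (adjusted p = 0.232 and 0.216).

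Among 37 transcription factors of granulocytes, 15 rose and 8 fell (8 at least 2-fold higher, median -0.04, and -0.04 to 0.32 over the alternatives). Nfe2, a bZIP factor of myeloid and erythroid cells, rose by 1.67 ± 0.16. Id2, an inhibitor of basic helix-loop-helix factors, rose by 1.65 ± 0.23, and Max, the partner of Myc, by 1.57 ± 0.15. Trib1, which promotes the breakdown of C/EBP alpha, fell by 0.94, and Gata2, a factor of progenitors and mast cells, by 0.86. Of 15 progenitor genes 5 rose and 4 fell, with a median of -0.02, beside 25.5% higher and 40% lower among all genes. Those that fell are not named here. Myb, which keeps progenitors dividing, had 8.23 and 7.99 on the 6-week arrays, against 6.73, 6.82, 6.40 and 6.75 on the naive arrays (1.44 ± 0.26), and Erg, an ETS factor of stem cells, rose by 1.61 ± 0.14.

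Genes of cell division rose. All 40 measured mitosis genes did so, 33 of them at least 2-fold, with a median change of 1.84, and both 6-week arrays lay above all naive arrays in each of the 40. The count was 34 with intensities below 64 set to 64. Top2a, which untangles chromosomes before they part, had log2 intensities of 10.37 and 10.05 on the 6-week arrays, against 7.27, 7.22, 7.16 and 7.06 on the naive arrays (3.04 ± 0.30, 8.22-fold higher, adjusted p = 4.63e-07). Mki67, which coats mitotic chromosomes, had 10.47 and 10.21 on the 6-week arrays, against 7.34, 7.42, 7.20 and 7.36 on the naive arrays (3.01 ± 0.37). Nuf2, which links kinetochores to the spindle, had 9.49 and 8.99 on the 6-week arrays, against 6.16, 6.03, 5.97 and 5.87 on the naive arrays, a level among unexpressed features in naive cells. In naive cells 8 of the 40 genes lay above the level that 95% of the receptor genes do not reach, and 37 did so at 6 weeks. That level was 7.22 in naive cells and 6.56 at 6 weeks, and 6145 and 9285 of all 19938 genes lay above it. Summed intensity was 14466 to 17069 at 6 weeks and 4294 to 4520 in naive cells. The first 6-week array was the higher one in the list mean (8.39 and 8.15).

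DNA replication and nucleotide synthesis followed in part. Of 35 genes 19 rose and 1 fell (12 at least 2-fold higher, median 0.66). Rrm1 and Rrm2, the subunits of ribonucleotide reductase, rose by 2.41 ± 0.23 and 2.22 ± 0.21, and Mcm7, a subunit of the replicative helicase, by 1.62 ± 0.22. Rrm2 lay at 9.27 and 9.01 at 6 weeks, against 6.89, 6.89, 6.89 and 7.01 in naive cells. Of 19 genes of the G1 phase and its E2F circuit 12 rose and 3 fell (median 0.63), led by Cdk2, the kinase of S phase entry (2.61 ± 0.18), Rbl1, the pocket protein p107 (1.95 ± 0.18), and E2f8, a repressive E2F (1.91 ± 0.26). In a list of 16 genes, of histones and of the chromatin proteins Hmgb2 and Hmgn2, 11 rose and 0 fell (median 1.13). H1f5 rose by 2.71 ± 0.29 and H2ax by 2.42 ± 0.27. H1f5 had 11.91 and 11.62 on the 6-week arrays, against 9.23, 9.15, 8.67 and 9.18 on the naive arrays, and naive replicate 3 was the lowest. Histone genes of a cluster are near copies, so features of single members are uncertain.

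Promoters of these lists were read from the RefSeq promoter table of GRCm38.p6 (300 bases, of which the first 250 precede the start site) and searched on both strands. The cell cycle genes homology region, CHR, was searched as TTTGAA or TTCGAA, and E2F sites as TTTGGCGC, TTTCCCGC, TTTCGCGC or TTTGCCGC. CHR letters were found in 28 of 35 mitosis promoters (80%) and in 5254 of all 27025 promoters (19.4%), while E2F letters were found in 1 of 35 mitosis promoters (2.86%) and in 626 of all promoters (2.32%). In 30 promoters of the replication list the shares were 20% for CHR and 36.7% for E2F. Matches are a description of letters, not of bound sites. The promoters of Top2a (chr11:99024140-99024439, minus strand), Mki67 (chr7:135716330-135716629, minus strand) and Mcm7 (chr5:138171834-138172133, minus strand) are shown because they hold such letters and belong to genes that rose. They were chosen after values and matches were seen, and the windows of Nuf2 and Rrm1, the members with the largest rises, held no match. Capitals mark CHR letters in Top2a and Mki67. In Mcm7 they mark CHR letters (TTCGAA) and E2F letters (GCGGGAAA, the reverse complement of TTTCCCGC, and TTTCGCGC).
Top2a: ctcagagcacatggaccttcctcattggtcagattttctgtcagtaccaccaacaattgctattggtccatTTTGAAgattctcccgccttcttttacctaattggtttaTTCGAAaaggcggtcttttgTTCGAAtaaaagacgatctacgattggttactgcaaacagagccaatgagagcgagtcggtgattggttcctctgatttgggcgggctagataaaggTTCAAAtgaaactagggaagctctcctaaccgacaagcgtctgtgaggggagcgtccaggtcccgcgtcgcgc
Mki67: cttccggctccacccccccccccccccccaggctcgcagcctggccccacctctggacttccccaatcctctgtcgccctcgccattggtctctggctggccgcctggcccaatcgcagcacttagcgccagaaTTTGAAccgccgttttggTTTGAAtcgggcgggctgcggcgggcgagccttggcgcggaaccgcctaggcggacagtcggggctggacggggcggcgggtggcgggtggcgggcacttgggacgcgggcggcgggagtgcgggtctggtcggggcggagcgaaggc
Mcm7: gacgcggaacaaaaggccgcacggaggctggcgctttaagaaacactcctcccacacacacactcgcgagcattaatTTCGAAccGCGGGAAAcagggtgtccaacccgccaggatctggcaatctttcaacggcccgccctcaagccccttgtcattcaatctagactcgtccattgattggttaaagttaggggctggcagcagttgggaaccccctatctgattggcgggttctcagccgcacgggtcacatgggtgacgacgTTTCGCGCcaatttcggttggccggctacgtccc

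For the granule lists the C/EBP letters TTGCNNAA were searched. They were found in 6 of 20 specific granule promoters (30%), 2 of 14 azurophil (14.3%) and 2 of 11 gelatinase promoters (18.2%), against 10.8% of all promoters. The promoter of Ltf (chr9:111019042-111019341, plus strand) is shown as one that holds the letters, here on the opposite strand as TTGGGCAA, 75 bases before the start site and in capitals. The window of Chil3, the member with the largest rise, held none.
Ltf: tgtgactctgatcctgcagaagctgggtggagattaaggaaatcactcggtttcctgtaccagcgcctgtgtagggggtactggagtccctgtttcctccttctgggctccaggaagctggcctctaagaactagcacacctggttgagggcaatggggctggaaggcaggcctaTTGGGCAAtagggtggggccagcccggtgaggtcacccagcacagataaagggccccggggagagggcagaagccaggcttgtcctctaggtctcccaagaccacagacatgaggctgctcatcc

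The genes linked to suppression of T cells moved in both directions. Of 32, 14 rose and 7 fell, with a median of 0.19 (-0.01 to 0.55 over the alternatives). Ptgs2, given above, belongs to this list as its largest fall and the 1 member at least 2-fold lower. Arg1, the arginase that depletes arginine, had 5.36 and 5.34 on the 6-week arrays, against 5.94, 5.74, 5.70 and 5.77 on the naive arrays, all under the level that 95% of the receptor genes do not reach. Its change of -0.44 ± 0.11 passed (adjusted p = 0.00284), beside a median of -0.36 in the receptor genes. It did not pass after centring on the receptor genes (-0.09, adjusted p = 0.613), after median centring (0.0624) or after quantile normalization over 8 arrays (0.0746). Arg2, the mitochondrial arginase, was expressed and had 8.86 and 9.15 on the 6-week arrays, against 8.75, 8.65, 9.0 and 8.18 on the naive arrays. The groups overlapped and the change of 0.36 ± 0.21 did not pass (adjusted p = 0.132). It was -0.04 after either quantile normalization, and it passed after centring on the receptor genes (0.71, adjusted p = 0.0385). Nos2, the inducible nitric oxide synthase, lay at 6.39 and 6.34 at 6 weeks, against 6.68, 6.69, 6.97 and 6.75 in naive cells (-0.41 ± 0.15, adjusted p = 0.0226, and 0.757 after centring on the receptor genes). That call also ended after median centring (adjusted p = 0.17) and after quantile normalization over 17 or 8 arrays (0.0924 and 0.23). It ended as well with a replicate block (0.0779) and without naive replicate 3 (0.0612). Without 6-week replicate 1 or 2 the change of Nos2 was -0.433 and -0.385. The change of Il10, a suppressive cytokine, was -0.20 ± 0.11 (adjusted p = 0.107), and 0.15 after centring on the receptor genes. The change of Tgfb1, another one, was -0.08 ± 0.12 (adjusted p = 0.527). It was 0.11 after median centring and 0.27 after centring on the receptor genes, while it passed as lower after quantile normalization over 17 arrays (-0.49, adjusted p = 0.00189) and over 8 (-0.45, adjusted p = 0.00615). 

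The largest rises of that list were those of Olr1, Lgals3 and Vsir. Olr1, the scavenger receptor LOX-1, had 8.59 and 8.31 on the 6-week arrays, against 6.14, 6.18, 5.91 and 6.13 on the naive arrays (2.36 ± 0.12, 5.13-fold higher, adjusted p = 9.02e-10). Lgals3, a galectin that binds glycans on T cells, had 10.52 and 10.66 on the 6-week arrays, against 8.36, 9.05, 8.66 and 8.26 on the naive arrays (2.01 ± 0.18). Vsir, the checkpoint molecule VISTA, had 10.81 and 10.83 on the 6-week arrays, against 9.58, 9.55, 9.42 and 9.50 on the naive arrays (1.30 ± 0.13). In these 3 genes no naive array reached a 6-week array. Il4ra, a chain of the receptors for interleukins 4 and 13, rose by 0.68 ± 0.10 (adjusted p = 1.94e-05). Cd274, the checkpoint ligand PD-L1, fell by 0.52 (adjusted p = 0.0074), a call that ended after median centring (adjusted p = 0.116), after centring on the receptor genes (0.518) and without 6-week replicate 1 (0.0999). Slc7a11, the cystine transporter, fell by 0.83 (adjusted p = 0.002, and 0.101 after centring on the receptor genes).

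The NADPH oxidase, which makes the oxidative burst of phagocytes, rose in all 9 measured genes, 7 of them at least 2-fold (median 1.26). Cybb, its catalytic subunit gp91phox, had 13.31 and 13.29 on the 6-week arrays, against 11.93, 11.87, 11.37 and 11.81 on the naive arrays (1.55 ± 0.15, 2.93-fold higher, adjusted p = 4.5e-07). Its partner Cyba (p22phox) had 11.47 and 11.45 on the 6-week arrays, against 9.40, 9.98, 9.28 and 9.28 on the naive arrays (1.98 ± 0.19). The cytosolic subunits Ncf4 (p40phox) and Ncf1 (p47phox) rose by 2.18 ± 0.17 and 1.67 ± 0.14. Every one of these was higher on both 6-week arrays than on any naive array. Summed intensity over the 9 genes was 27384 to 27424 at 6 weeks and 9057 to 11231 in naive cells. After quantile normalization over 17 or 8 arrays 7 of the 9 passed.

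Of 21 antioxidant enzymes 13 rose and 2 fell (median 0.54). Gsr (glutathione reductase), Gclm (a subunit of the enzyme that limits glutathione synthesis) and Gpx1 (glutathione peroxidase) rose by 1.80 ± 0.12, 1.80 ± 0.21 and 1.60 ± 0.18. Sod1, the cytosolic superoxide dismutase, went the other way with 9.64 and 10.06 on the 6-week arrays, against 11.42, 10.78, 10.82 and 11.38 on the naive arrays (-1.25 ± 0.18, adjusted p = 2.49e-05). Of 19 S100 and annexin genes 11 rose and 5 fell (median 0.50). Anxa3 led, and Anxa5 (annexin A5, which binds phosphatidylserine) and S100a6 (calcyclin) rose by 1.87 ± 0.14 and 1.82 ± 0.21. The largest fall was that of Anxa6, by 0.68, which did not pass after centring on the receptor genes (adjusted p = 0.135).

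Genes of eicosanoid synthesis moved in both directions. Of 17, 6 rose and 4 fell (median 0.28). On the leukotriene branch, Lta4h rose as given above, Alox5 (5-lipoxygenase) had 11.40 and 11.42 on the 6-week arrays, against 10.18, 10.17, 9.94 and 9.85 on the naive arrays (1.37 ± 0.23), and its helper Alox5ap rose by 1.33 ± 0.11. On the prostaglandin branch, Ptgs2 fell as given above and Ptgds, a prostaglandin D synthase, fell by 0.68. The other members of the list are not given by branch, so these genes do not show a split between the branches. Ltb4r1, the high affinity receptor for leukotriene B4, had 9.97 and 10.21 on the 6-week arrays, against 7.99, 7.90, 7.87 and 8.0 on the naive arrays (2.15 ± 0.12, 4.43-fold higher). The groups did not overlap in any of these genes, which for Lta4h and Ptgs2 was a condition of their choice as leading genes.

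**Figure D3:**
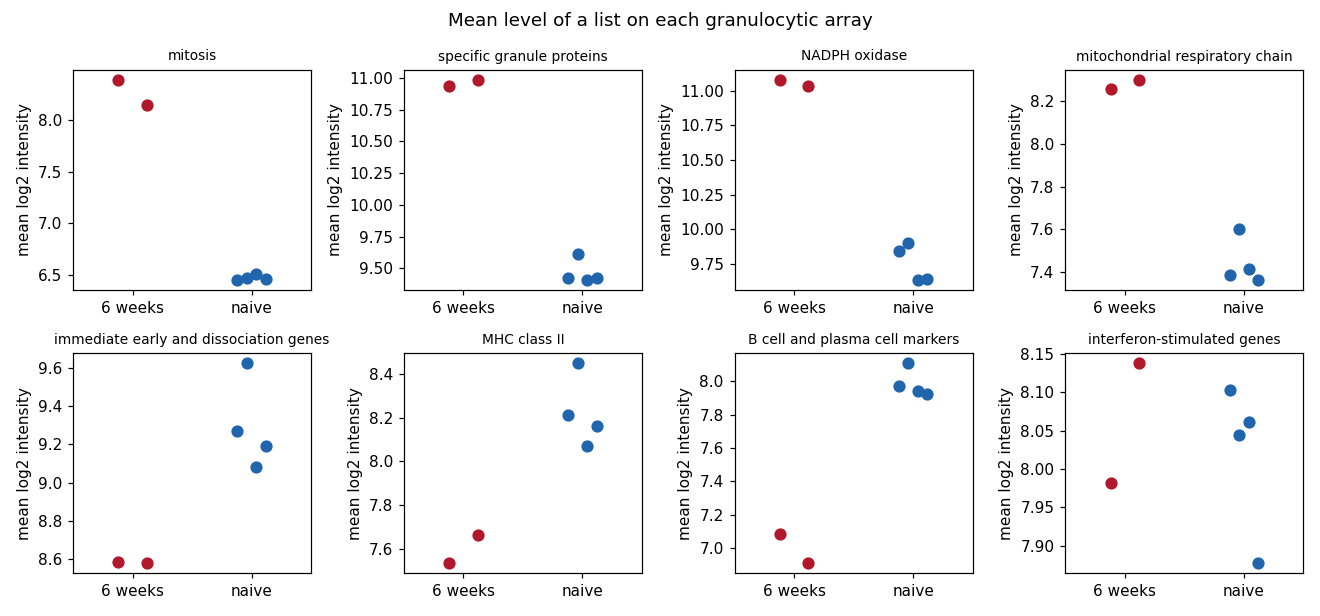
Mean log2 intensity over the measured members of 8 lists, on each of the 2 6-week arrays (left in each panel) and the 4 naive arrays (right). The axes do not start at 0. The stages do not overlap in 7 panels, and they overlap for interferon-stimulated genes (7.98 and 8.14 at 6 weeks, 7.88 to 8.10 in naive cells).

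Immediate early and dissociation genes, which cells switch on within minutes of a stimulus and also during tissue handling, were lower at 6 weeks. Of 25, 16 fell and 4 rose, with 8 at least 2-fold lower and a median of -0.63. Egr1 had 7.51 and 7.60 on the 6-week arrays, against 9.60, 10.12, 8.95 and 9.76 on the naive arrays (-2.05 ± 0.23, adjusted p = 2.05e-06). Nr4a1, an orphan nuclear receptor, had 7.95 and 7.88 on the 6-week arrays, against 10.06, 10.93, 9.90 and 9.99 on the naive arrays (-2.30 ± 0.24), and Fosb, a subunit of AP-1, had 9.0 and 8.66 on the 6-week arrays, against 10.94, 11.71, 10.56 and 10.97 on the naive arrays (-2.22 ± 0.37). The 6-week arrays were below all naive arrays in each, a condition of their choice as leading falls. Naive replicate 2 was the highest naive array in each. The mean of the list was 8.58 and 8.59 at 6 weeks and ran from 9.08 to 9.62 in naive cells, again with replicate 2 highest. The members with the largest rises were the heat shock genes Dnajb1 and Hspa8, at 0.82 ± 0.18 and 0.63 ± 0.12. The count of falls was 11 after median centring, and how long cells of either stage were handled is not given in the sources used here.

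Of 33 inflammatory genes linked to NF-kB, 16 were lower and 7 higher, beside 40% lower and 25.5% higher among all genes. At least 2-fold lower were 6 of them, beside 0.797% of all genes. The median was -0.29, and 0.06 after centring on the receptor genes, where 8 fell. Ptgs2, Cxcl2 and Ccl3 were the largest falls. Against them, Plaur (the urokinase receptor) and Tnf (tumour necrosis factor) rose. Tnf had 8.68 and 9.01 on the 6-week arrays, against 7.66, 7.92, 7.53 and 7.79 on the naive arrays (1.12 ± 0.20, adjusted p = 0.000204), and Plaur rose by 1.22 ± 0.13.

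Interferon-stimulated genes had no common direction. Of 36, 10 rose and 6 fell, with a median of 0.12 (-0.04 to 0.47 over the alternatives). Samd9l, an antiviral and antiproliferative protein, rose by 1.26 ± 0.24, Sp100, a nuclear body protein, by 0.87 ± 0.12, and Stat2, a subunit of the interferon signal complex, by 0.69 ± 0.11. Slfn5 fell by 1.46. Rsad2 (viperin) had 7.84 and 8.09 on the 6-week arrays, against 8.93, 8.86, 8.80 and 8.52 on the naive arrays (-0.81 ± 0.24, adjusted p = 0.00783, 0.133 after centring on the receptor genes and 0.0842 without 6-week replicate 1). Letters of the interferon-stimulated response element (ISRE) were found in 12 of 27 promoters of the list (44.4%) and in 3.49% of all promoters.

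MHC class II genes present antigen to CD4 T cells, and neutrophils barely use them. Their list also held the transactivator gene Ciita and the costimulatory genes Cd80, Cd86 and Cd40. Of its 12 members 8 fell and 0 rose (median -0.71). Cd74, the invariant chain, had 8.72 and 9.26 on the 6-week arrays, against 10.40, 10.76, 9.94 and 10.43 on the naive arrays (-1.39 ± 0.36, adjusted p = 0.00332, and 0.0594 without 6-week replicate 1). H2-Eb1 had 8.19 and 8.44 on the 6-week arrays, against 9.32, 9.46, 8.99 and 9.19 on the naive arrays (-0.92 ± 0.24, adjusted p = 0.00354, and 0.0517 after centring on the receptor genes). H2-Aa lay at 8.66 and 9.13 at 6 weeks, against 9.46, 10.19, 9.47 and 9.57 in naive cells. Its groups did not overlap, but its change of -0.78 ± 0.40 did not pass (adjusted p = 0.0959). It passed in the 8 PMN arrays alone (adjusted p = 0.0191), with array weights (0.0151) and after quantile normalization over 17 arrays (-1.25, 0.00952) or 8 (-1.20, 0.0243). Cd40, a costimulatory receptor, fell by 0.85. The count of falls was 2 after centring on the receptor genes. B cell genes, which belong to cells that carry these molecules, moved with them: 17 of 19 fell, and their summed intensity was 3381 to 3677 at 6 weeks and 5537 to 6456 in naive cells. Their part in the MHC class II result was not tested.

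MHC class I processing went the other way, with 9 of 14 genes higher and 2 lower (median 0.44). Psme1 (a proteasome activator), Tap2 (a peptide transporter) and Pdia3 (of the peptide loading complex) rose by 1.2 ± 0.15, 0.80 ± 0.10 and 0.69 ± 0.18. Nlrc5, the transactivator of class I genes, fell, with 9.43 and 9.46 on the 6-week arrays, against 10.68, 10.42, 10.50 and 10.87 on the naive arrays (-1.17 ± 0.20). After quantile normalization over the 8 PMN arrays 3 genes passed as higher, and Pdia3 did not pass (adjusted p = 0.128).

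Among the receptors through which a neutrophil senses its surroundings, 3 of 20 for chemokines and other attractants rose and 9 fell (median -0.14, and 0.22 after centring on the receptor genes), a share of falls near that of all genes. Ltb4r1 and S1pr4, a sphingosine 1-phosphate receptor, rose, S1pr4 by 1.2 ± 0.09. Ccr7, which guides cells to lymph nodes, fell, with 7.36 and 7.38 on the 6-week arrays, against 8.42, 8.48, 8.23 and 8.36 on the naive arrays (-1.0 ± 0.15). Of 29 receptors for growth factors and cytokines 18 rose and 4 fell (median 0.40), with 9 rises after quantile normalization over all 17 arrays. Il1r2, the decoy receptor for interleukin 1, had 10.71 and 11.01 on the 6-week arrays, against 9.28, 9.67, 9.28 and 9.50 on the naive arrays (1.43 ± 0.28), and Il18rap and Csf2rb2 rose by 1.12 ± 0.27 and 1.11 ± 0.14. Of 21 JAK-STAT and SOCS genes 10 rose and 3 fell (median 0.23), with Stat3, the transducer of G-CSF and interleukin 6 signals, higher by 0.73 ± 0.11 (adjusted p = 3.79e-05).

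Of 33 pattern recognition and C-type lectin receptors 17 rose and 5 fell (9 at least 2-fold higher, median 0.49). Clec4a2 had 8.68 and 8.53 on the 6-week arrays, against 5.85, 6.15, 6.07 and 5.90 on the naive arrays (2.61 ± 0.19, 6.12-fold higher). Clec12a, an inhibitory receptor for uric acid crystals, had 10.71 and 10.71 on the 6-week arrays, against 8.22, 8.64, 8.20 and 8.44 on the naive arrays (2.33 ± 0.16), and Clec5a, which signals through DAP12, rose by 1.86 ± 0.23. The beta-glucan receptor gene Clec7a (dectin-1) fell by 0.86 and Tlr9, the receptor for bacterial DNA, by 0.81. Of 25 integrins and adhesion molecules 13 rose and 6 fell (median 0.33), with Cd177, a neutrophil surface antigen that binds PECAM-1, at 12.46 and 12.46 at 6 weeks, against 10.19, 10.29, 10.06 and 10.45 in naive cells (2.21 ± 0.16) and Ceacam1 higher by 1.99 ± 0.13. Of 9 Fc receptor genes 4 rose and 2 fell. Fcgr2b, the inhibitory IgG receptor, rose by 1.36 ± 0.14 and Fcgr4, an activating one, by 1.05 ± 0.16. Fcer1g, the signalling chain of activating Fc receptors, had 11.81 and 11.65 on the 6-week arrays, against 9.53, 11.06, 10.96 and 9.57 on the naive arrays (1.45 ± 0.32), with naive replicates 2 and 3 more than 1 log2 unit above replicates 1 and 4.

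Genes of energy metabolism rose. In glycolysis and the response to hypoxia 18 of 28 genes rose and 2 fell (11 at least 2-fold higher, median 0.80). Ero1a, an oxidase of the endoplasmic reticulum induced by hypoxia, rose by 2.43 ± 0.19, and the hexokinase genes Hk3 and Hk2 by 1.85 ± 0.13 and 1.66 ± 0.13. Hk3 had 10.56 and 10.55 on the 6-week arrays, against 8.77, 8.70, 8.67 and 8.69 on the naive arrays, with no overlap. Of 34 respiratory chain genes 31 rose and 0 fell, 13 at least 2-fold (median 0.89), led by Ndufv2 of complex I (1.75 ± 0.15), Atp5j of the ATP synthase (1.55 ± 0.20) and Sdhb of complex II (1.45 ± 0.23). The list mean was 8.26 and 8.30 at 6 weeks, against 7.36 to 7.60 in naive cells. The count of rises was 24 after quantile normalization over the 8 PMN arrays.

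The protein synthesis machinery was divided. Of 26 ribosomal protein genes 14 rose and 2 fell (median 0.47), with Rps3 and Rps9 higher by 1.09 ± 0.20 and 1.06 ± 0.12, and Rps2 lower by 0.60. Rps2 did not pass after centring on the receptor genes (adjusted p = 0.132). Many of these genes have processed pseudogenes whose features can share signal. Of 22 ribosome biogenesis genes 2 rose and 10 fell (median -0.29), but 0 fell after centring on the receptor genes, where the median was 0.07. Ebna1bp2 rose by 1.06 ± 0.18. Of 29 genes of the unfolded protein and amino acid responses 9 rose and 4 fell (median 0.13). Asns, asparagine synthetase, had 9.41 and 9.10 on the 6-week arrays, against 6.77, 6.61, 6.81 and 6.77 on the naive arrays (2.51 ± 0.14, 5.69-fold higher), Dnajc3, a chaperone that restrains PERK, rose by 1.28 ± 0.16, and Xbp1, a transcription factor of the response that splicing activates, by 1.13 ± 0.13.

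In lipid metabolism, 8 of 19 cholesterol synthesis genes rose and 3 fell (median 0.13). Msmo1, a sterol demethylase, had 10.37 and 10.37 on the 6-week arrays, against 8.56, 8.62, 8.40 and 8.30 on the naive arrays (1.90 ± 0.14). Hsd17b7 and Idi1 rose by 1.55 ± 0.13 and 1.43 ± 0.18, while Lss (lanosterol synthase) fell by 0.72, so that steps of the same pathway moved apart. Of 25 genes of lipid uptake, efflux and storage 9 rose and 3 fell, with Dgat2 (triglyceride synthesis) and Mgll (monoglyceride breakdown) higher by 1.56 ± 0.17 and 1.52 ± 0.14. Scd1, the stearoyl-CoA desaturase, had 7.11 and 6.85 on the 6-week arrays, against 8.55, 8.35, 8.07 and 8.17 on the naive arrays (-1.30 ± 0.37, adjusted p = 0.00592, and 0.0587 without 6-week replicate 2). 

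Of 23 lysosome genes 10 rose and 2 fell (median 0.15), with Ctse (cathepsin E), Atp6v0d1 (a proton pump subunit) and Lamp2 higher by 1.31 ± 0.15, 1.29 ± 0.14 and 1.24 ± 0.12. Of 20 genes of the BCL2 family and cell death 10 rose and 6 fell (median 0.24). Padi4, which citrullinates histones during the release of neutrophil extracellular traps, had 9.64 and 9.94 on the 6-week arrays, against 7.67, 7.63, 7.52 and 7.66 on the naive arrays (2.17 ± 0.16, 4.51-fold higher). The inflammatory caspase genes Casp1 and Casp4 rose by 1.81 ± 0.22 and 1.51 ± 0.17. Pmaip1 (Noxa) and Bcl2 fell by 1.01 and 0.67. Of 16 protease inhibitors 10 rose and 3 fell, 8 at least 2-fold higher (median 0.98), led by Stfa3, Stfa2 and Serpinb1a.

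B and plasma cell markers fell in 17 of 19 genes and rose in 1, with 11 at least 2-fold lower and a median of -1.03. Cd79a had 7.41 and 7.72 on the 6-week arrays, against 9.58, 9.30, 9.37 and 9.54 on the naive arrays (-1.88 ± 0.34, 3.69-fold lower). Ms4a1 had 7.20 and 6.87 on the 6-week arrays, against 8.97, 8.77, 8.82 and 8.36 on the naive arrays (-1.70 ± 0.43), and Pax5 had 7.32 and 7.15 on the 6-week arrays, against 8.93, 8.99, 8.78 and 8.97 on the naive arrays (-1.68 ± 0.21). The 6-week arrays were below all naive arrays in each of the 3, a condition of their choice as leading falls. Of the falls in the list, 13 passed after centring on the receptor genes. In naive cells 15 of the 19 genes lay above the level that 95% of the receptor genes do not reach, and 13 did at 6 weeks. That level was 7.22 in naive cells and 6.56 at 6 weeks, so the counts rest on unlike cutoffs. Cd37, a tetraspanin also found on myeloid cells, was the member that rose, by 0.77 ± 0.17.

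T and NK cell markers fell in 18 of 26 genes and rose in 1 (median -0.39), but 1 fell after centring on the receptor genes, and 8 lay above the receptor level in naive cells. Summed intensity was 2758 to 2769 at 6 weeks and 3301 to 3979 in naive cells. Cd2 had 7.39 and 7.25 on the 6-week arrays, against 9.13, 8.67, 8.20 and 8.41 on the naive arrays (-1.28 ± 0.25). Cd3d, a chain of the T cell receptor complex, was the one that rose, with 8.51 and 8.76 on the 6-week arrays, against 7.16, 7.01, 6.80 and 7.09 on the naive arrays (1.62 ± 0.12, 3.07-fold higher, adjusted p = 4.05e-08). Dendritic cell markers fell in 12 of 18 genes and rose in 2 (median -0.44, with 2 falls after centring on the receptor genes). Stromal, endothelial and epithelial genes fell in 18 of 25 and rose in 1 (median -0.39, with 3 falls after centring on the receptor genes). Monocyte and macrophage markers fell in 8 of 31 and rose in 4 (median -0.06), beside 40% lower and 25.5% higher among all genes. Their summed intensity, which holds Lyz2, was 17557 to 17576 at 6 weeks and 10986 to 16128 in naive cells.

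Of the rest, eosinophil markers fell in 4 of 10 genes and rose in 0, and mast cell and basophil markers fell in 5 of 15 and rose in 3. Among all genes 40% were lower and 25.5% higher. The shares of falls in these lists, and in the erythroid and platelet genes, were near or below that background. Erythroid genes had 2 of 20 higher and 2 lower, with Tfrc, the transferrin receptor that dividing cells also use, at 9.19 and 8.27 at 6 weeks, against 7.06, 7.21, 6.90 and 6.85 in naive cells (1.73 ± 0.39) and Xk higher by 1.94 ± 0.18. Platelet genes had 4 of 13 higher and 4 lower, with F5, coagulation factor V, at 9.16 and 9.16 at 6 weeks, against 7.02, 7.24, 7.04 and 7.04 in naive cells (2.08 ± 0.13). Summed intensity of the erythroid genes was 2742 to 3113 at 6 weeks and 2070 to 2098 in naive cells. The part of other cells in the results above was not tested.

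**Figure D4:**
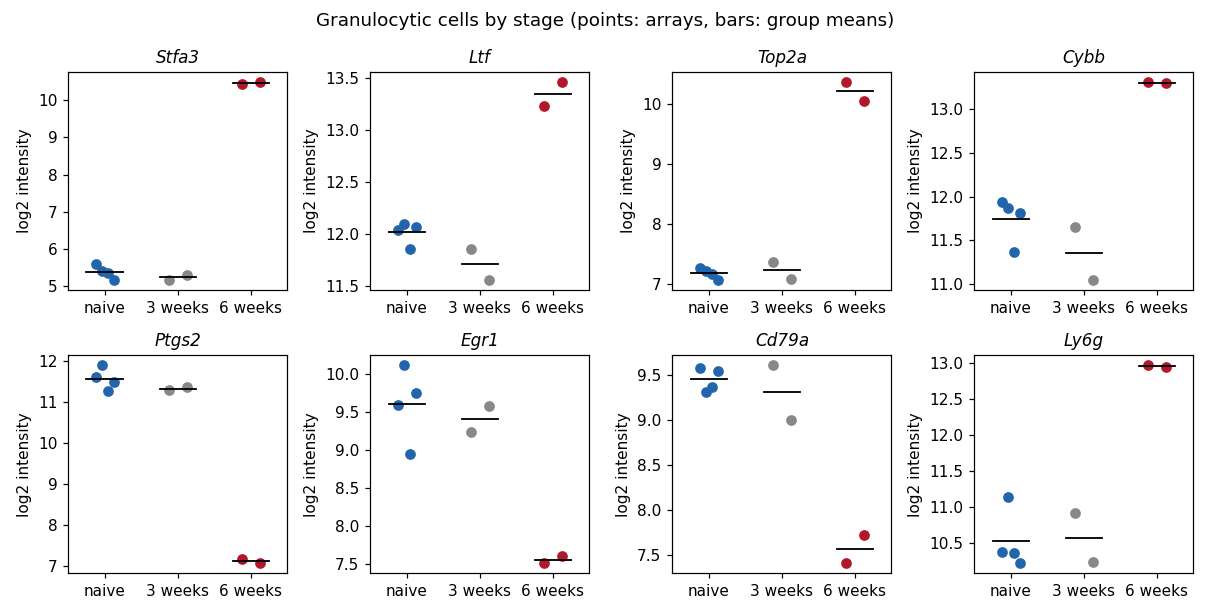
Log2 intensity of 8 genes on the PMN arrays of naive mice (4), 3-week mice (2) and 6-week mice (2), with bars at the group means. The axes do not start at 0. The 3-week arrays lie near the naive ones and apart from the 6-week ones in each gene shown.

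The 3-week arrays were set beside the leading genes as a description, without a test, since they share the naive arrays as controls. In all 15 leading rises and all 15 leading falls both 3-week arrays lay apart from both 6-week arrays, on the naive side. The 3-week mean minus the naive mean ran from -0.82 to 0.22 over the rises and from -0.59 to 0.57 over the falls. Stfa3 lay at 5.18 and 5.31, Top2a at 7.37 and 7.08 and Ptgs2 at 11.28 and 11.36 on the 3-week arrays.

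**Figure D5:**
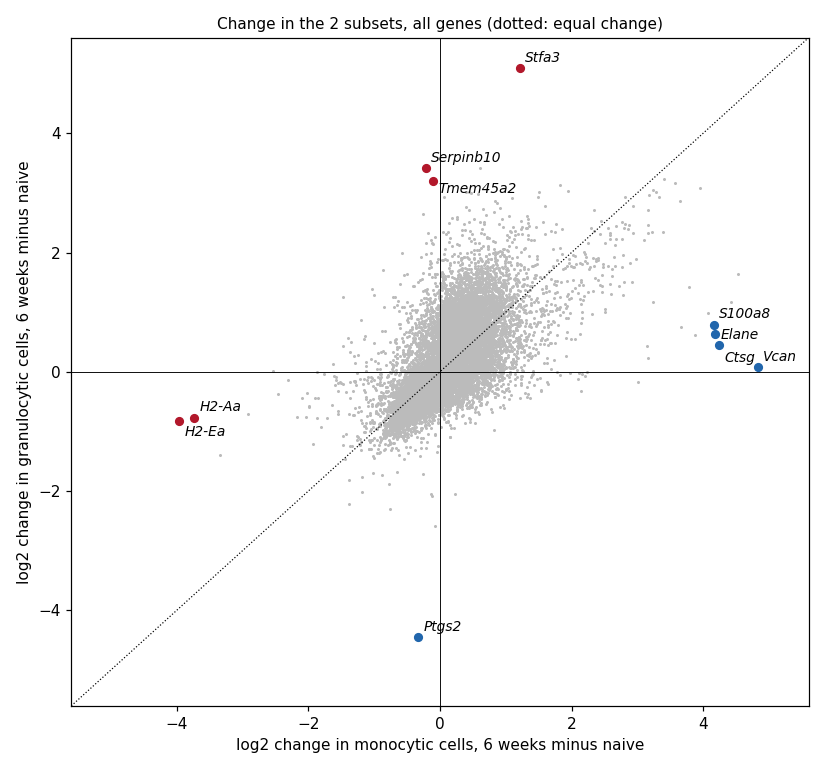
Log2 change at 6 weeks in PMN cells (vertical axis) against the change in Mo cells (horizontal axis) for all 19938 genes, each change against the naive arrays of its own subset. The genes with the 5 most positive and the 5 most negative differences are named, and the dotted line marks equal change. Ptgs2 lies at -4.44 in PMN and -0.33 in Mo cells.

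The change in PMN cells was tested against the change in Mo cells of the same stages, which rest on other arrays. The difference passed an adjusted p of 0.05 in 3484 genes (17.5%), positive in 2195 (11%) and negative in 1289 (6.47%). The change of Stfa3 was 5.09 in PMN and 1.21 in Mo cells, a difference of 3.87 ± 0.74 (adjusted p = 0.00155). That of Serpinb10 was 3.42 in PMN and -0.21 in Mo cells (3.63 ± 0.33, adjusted p = 2.02e-06), and that of Tmem45a2 was 3.19 in PMN and -0.11 in Mo cells (3.30 ± 0.15). H2-Ea and H2-Aa, the alpha chains of the class II molecules I-E and I-A, were lower by more in Mo cells: the change of H2-Aa was -0.78 in PMN and -3.73 in Mo cells (2.95 ± 0.55), and that of H2-Ea was -0.82 in PMN and -3.96 in Mo cells (3.14 ± 0.60). 

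Of the negative differences, that of Ptgs2 came from its fall in PMN cells (-4.44 in PMN and -0.33 in Mo cells, a difference of -4.11 ± 0.25, adjusted p = 3.84e-08). In the other 4 genes the Mo change was the large one. Vcan, a proteoglycan of monocytes, stayed among unexpressed features in PMN cells at 5.33 and 5.75 at 6 weeks, against 5.41, 5.38, 5.61 and 5.43 in naive cells, with a change of 0.08 in PMN (-0.13 without 6-week replicate 2) and 4.83 in Mo cells (-4.76 ± 0.33). The change of Ctsg was 0.45 in PMN and 4.24 in Mo cells (-3.79 ± 0.38), that of Elane 0.63 in PMN and 4.18 in Mo cells (-3.55 ± 0.39), and that of S100a8 0.79 in PMN and 4.16 in Mo cells (-3.37 ± 0.40). All 10 differences passed in every fit in which they were tested.

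By list, the difference was positive in 29 of 36 interferon-stimulated genes and negative in 0, with a median change of 0.12 in PMN and -1.02 in Mo cells. The positive count was 19 without 6-week replicate 2. Samd9l changed by 1.26 in PMN and -1.47 in Mo cells (2.73 ± 0.32, adjusted p = 2.89e-05). It was positive in 6 of 9 NADPH oxidase genes, where Cybb changed by 1.55 in PMN and -0.26 in Mo cells (1.81 ± 0.21). It was negative in 22 of 35 replication genes and positive in 0 (median change 0.66 in PMN and 1.49 in Mo cells), but in 7 without 6-week replicate 2, in 14 after median centring and in 2 after centring on the receptor genes. It was negative in 17 of 22 ribosome biogenesis genes (median change -0.29 in PMN and 0.47 in Mo cells), and in 10 without 6-week replicate 2, 10 after median centring and 5 after centring on the receptor genes. Of the 40 mitosis genes 8 had a negative and 1 a positive difference, with a median change of 1.84 in PMN and 2.38 in Mo cells. That negative count was 28 with array weights, 4 and 1 without 6-week replicate 1 and 2, 5 without naive replicate 4, 3 after median centring and 0 after centring on the receptor genes.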

How the data were processed

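The deposited values were feature intensities on a linear scale, made by the authors with RMA per the submitters' processing notes; the version, settings and genome build are not given in the sources used here. Log2 values had been assumed in the plan, so log2 was taken of the deposited values. No array column was left out. Of 35557 features, 21789 carried 1 gene symbol (1621 several, 12147 none), and 21698 matched the RefSeq annotation of GRCm38.p6 by Entrez number. For 999 genes with several features the brightest on average stood for the gene, so 19938 genes were tested. Precision is limited by 2 arrays against 4.

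The comparison was a contrast of group means (6 groups, 17 arrays) in limma 3.58.1 under R 4.3.3. lmFit and eBayes were run with no filter on dim genes, two-sided, with Benjamini-Hochberg adjustment over all genes. All adjusted p-values are from limma. Standard errors pool the spread within all 6 groups, Mo arrays included, so they are not the spread of PMN arrays alone. In arrays simulated for this comparison, 200 of 19938 genes were changed and the noise was independent from array to array. Of genes changed 1.5-fold 59.7% were called, and of those changed 2-fold 98.51%, with 14 false calls among the unchanged genes. The simulation held no shift of whole arrays, such as the lower median at 6 weeks, so its false calls do not carry over to these data. Mo and PMN arrays appear to have been normalized apart, so levels were compared within a subset only.

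Alternatives were centring on the array median or on the receptor genes (this one chosen after seeing the data), quantile normalization over 17 or 8 arrays, a floor at 64, leaving out genes with a mean log2 under 6, fits of fewer arrays, a trend and robust prior, array weights, the mean of a gene's features, a replicate block and leaving out each array.

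Named genes were the 15 largest rises and falls with stages apart (predicted, small RNA and receptor genes skipped), up to 3 rises and 3 falls of each of 45 lists, a fixed set (Arg1, Arg2, Nos2, Cybb, Ptgs2, Tgfb1, Il10, Il4ra, Cd274, S100a8, S100a9, Ly6g, Itgam, Cxcr2, Csf3r and Vcan), and the 5 largest subset differences each way. Not all genes that the rule allows are named, and Ccr2 and Ltf were added after their values were seen. The stages, lists and rule were chosen with earlier results of these data known.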

Additional observations from a re-analysis of the deposited data

Results flagged for a closer look

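In 13 of 163 genes that are named, 1 of the 4 naive arrays lay far from the other 3, by Dixon's test at 95%, which chance alone brings to about 1 in 20 groups. Naive replicate 2 was that array in 11 of the 13. It was high in Ly6g (11.14 on the log2 scale), Olfm4 (9.50), Nr4a1 (10.93), H2-Aa (10.19), H2-Ea (10.81), Serpinb10 (6.99), Anxa5 (7.91), Cyba (9.98), F5 (7.24), Id2 (8.91) and Ccr2 (6.40). Naive replicate 3 was low in H1f5 (8.67) and naive replicate 4 was high in Rrm2 (7.01).

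In 12 genes the change in PMN cells differed from that in Mo cells in the test of the difference (log2, PMN minus Mo). The difference was positive in Stfa3 (3.87), Serpinb10 (3.63), Tmem45a2 (3.30), H2-Ea (3.14), H2-Aa (2.95), Samd9l (2.73) and Cybb (1.82). It was negative in Vcan (-4.76), Ptgs2 (-4.11), Ctsg (-3.79), Elane (-3.55) and S100a8 (-3.37).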

How the results depend on the processing

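The count of 13047 changed genes was 8314 after quantile normalization over the 8 PMN arrays and 7410 after centring on the receptor genes, a setting chosen after seeing the data. The count of 7972 lower genes was 3507 after median centring, 980 after centring on the receptor genes, 4898 with intensities below 64 set to 64 and 3918 after quantile normalization over the 8 PMN arrays. With 1 array left out, 9383 to 12673 genes were called, 4284 to 5040 higher and 5001 to 7633 lower. Without 6-week replicate 1 or 2 the lower genes numbered 5099 and 5001, and the remaining 6-week array is then assumed to vary like the other groups. The fit with a replicate block called 12058 genes, 4937 higher and 7121 lower. The deviations of same-numbered arrays from their group means correlated at 0.013 and -0.023. With 2 arrays at 6 weeks those deviations are mirror images, so the check is weak and cannot show what the numbers mean. No pairing is assumed. The other counts of genes called, and all counts of genes called higher with no fold limit, stayed within 1.5 times under the alternatives run. The 1848 genes at least 2-fold higher numbered 1150 to 3395 over the alternatives, and the 159 at least 2-fold lower 25 to 313. After quantile normalization over the 8 PMN arrays, rises passed in 6 of 21 JAK-STAT and SOCS genes, 8 of 25 adhesion molecules, 8 of 26 ribosomal proteins, 5 of 29 genes of the unfolded protein response and 2 of 33 inflammatory genes. After centring on the receptor genes, falls passed in 0 of 10 eosinophil, 0 of 31 monocyte and 1 of 15 mast cell markers. Signs turned in Cxcr2 (0.15 after median centring, 0.30 after centring on the receptor genes, -0.105 to 0.008 with a 6-week array left out), Tgfb1 (0.11 and 0.27 after those centrings), Arg2 (-0.043 after quantile normalization over 17 and over 8 arrays), Il10 (0.15 after centring on the receptor genes) and Vcan (-0.133 to 0.29 with a 6-week array left out), none of which passed in the fit over 17 arrays. Of 153 named genes past the threshold, 135 passed under every alternative. All 12 named subset differences did. Where a call ended the cause was not tested. A rise or fall of a dim gene is limited by its signal over background, and 2 arrays at 6 weeks limit the precision.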
